A study of Mus musculus with 20 samples.

Results

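Colonoids are epithelial structures that grow from mouse colonic crypts embedded in a gel matrix. The day 3 libraries of WT and Tnfr2-/- colonoid cultures were compared with the day 2 libraries of the same cultures, which makes 8 of the 20 libraries of the series, 4 on each day. Days post-passage (DPP) run from the final passage, and the members were taken by their labels alone, as the libraries of 2 and 3 DPP. WT mice were C57BL/6, and Tnfr2-/- mice were of the strain B6.129S2-Tnfrsf1b tm1Mwm/J, with a whole-body deletion of the gene for TNF receptor 2, so that every cell type of those cultures lacked the intact gene. Each genotype was represented by 2 mice. Libraries of a genotype with the same number were taken as 1 mouse's culture on both days, which the labels do not state outright. All cultures shared their handling. They were grown in Matrigel with IntestiCult medium and passaged 5 times. They were then pushed through a 70-µm mesh and reseeded as fragments, and no treatment was added. On that reading day 2 and day 3 libraries are paired within a culture, while a genotype rests on 2 mice.

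After passage, colonic epithelium first spreads and divides and later forms differentiated cells. Entry into S phase is driven by D and E cyclins and the E2F factors, which switch on the genes that copy DNA. The genes of mitosis follow, and many of them are controlled through a pair of promoter elements, the cell cycle genes homology region (CHR) and the CCAAT box. As division slows, absorptive colonocytes acquire a brush border, ion channels and carbonic anhydrases, and goblet cells acquire the machinery that folds and secretes mucins. Interferon-stimulated genes, many of them antiviral, are switched on through the interferon-stimulated response element (ISRE).

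Each value is the sum of a gene's transcripts in TPM, a unit in which every library has the same total, after division by a size factor, and is called normalised expression here. They summed to 933574 to 1061152 per library on these days, and 13007 to 13248 genes per library reached a value of 1. The table does not give the number of reads behind each library, so intervals for low values cannot be stated. Fold changes are given as log2 of the value plus 1, with the standard error (SE) of the limma fit, so the fold of a gene at a few units comes out too small. In every set of 4 values below, the order is WT mouse 1, WT mouse 2, Tnfr2-/- mouse 1 and Tnfr2-/- mouse 2. A gene is called when its adjusted p is under 0.05 over the 13539 genes tested.

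The targeted gene was examined first. Tnfrsf1b (ENSMUSG00000028599, chromosome 4, 145213463 to 145246870, minus strand, GRCm38) stood at 13.4, 15, 4.06 and 2.89 on day 2 and at 11.1, 14.5, 3.70 and 5.52 on day 3. All 4 Tnfr2-/- libraries lay below all 4 WT libraries, with some abundance still assigned to the gene. Its change between the days was 0.09 (SE 0.209, adjusted p 0.891). The receptor TNFR1, encoded by Tnfrsf1a, differed by -0.28 (adjusted p 0.79) and was lower on day 3 in 2 of 4 cultures.

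The tissue label was checked against marker genes. All 8 pan-epithelial markers were abundant, with a summed level of 15039 to 19179 on day 2 and 15819 to 20164 on day 3. Epcam, an adhesion molecule of epithelia, went from 381, 362, 502 and 476 to 522, 458, 601 and 554, and Cdh1, which encodes E-cadherin, was also higher in all 4 cultures. Immune markers summed to 10 to 32 and endothelial markers to 1 to 5 in any of the 8 libraries, and Adgre1, Cd79a and Cd3e were listed at or near 0, while 3 of the 8 immune markers passed the filter on low values. The fibroblast markers were not at 0. Their 17 genes summed to 4561, 6505, 4748 and 6376 on day 2 and to 2998, 5836, 4388 and 6400 on day 3, so the sum was lower in 3 cultures, most in WT mouse 1. These are bulk samples, in which fewer cells of a type and less RNA per cell cannot be told apart.

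Promoter sequences are shown for members of the mitosis and interferon-stimulated lists, whose genes shared short motifs there, although none of these genes was called below. The windows come from RefSeq (build GRCm38.p6) and run from 250 bases before to 50 bases after the annotated start. A window was available for 9998 of the 13539 genes tested. The CHR motif, TTTGAA on either strand, was present in 16 of 21 mitosis windows (76.2%), against 14.4% of all windows. The inverted CCAAT motif, ATTGG on either strand, was present in 18 of those 21 (85.7%) against 43.1%. DNA replication genes held CHR in 3 of 25 windows (12%) and the CCAAT motif in 16 of 25 (64.0%). The ISRE, written as GAAA, any 2 bases and GAAA on either strand, was present in 11 of 18 windows of interferon-stimulated genes (61.1%) and in 3.73% of all windows. Of the 30 windows of genes that rose between the days, 7 held CHR (23.3%), 15 the CCAAT motif (50%) and 1 the ISRE (3.33%). A match describes letters, and binding was not measured. The 150 bases before the start site are printed 5′ to 3′ on the strand of the gene for 3 mitosis genes, with CHR matches in capitals (TTCAAA is the motif read on the other strand), and for 3 interferon-stimulated genes, with ISRE matches in capitals.
Ube2c (chr2:164769779-164769928, plus strand): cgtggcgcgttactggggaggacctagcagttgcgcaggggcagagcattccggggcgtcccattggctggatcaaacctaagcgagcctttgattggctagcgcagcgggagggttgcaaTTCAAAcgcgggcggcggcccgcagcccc
Cdk1 (chr10:69352913-69353062, minus strand): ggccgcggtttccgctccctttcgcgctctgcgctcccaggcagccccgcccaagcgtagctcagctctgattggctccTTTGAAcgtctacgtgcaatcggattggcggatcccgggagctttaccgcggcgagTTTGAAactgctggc
Top2a (chr11:99024190-99024339, minus strand): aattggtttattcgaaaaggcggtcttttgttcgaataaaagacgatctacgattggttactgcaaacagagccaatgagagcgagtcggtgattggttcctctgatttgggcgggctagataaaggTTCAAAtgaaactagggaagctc
Ifit1 (chr19:34640739-34640888, plus strand): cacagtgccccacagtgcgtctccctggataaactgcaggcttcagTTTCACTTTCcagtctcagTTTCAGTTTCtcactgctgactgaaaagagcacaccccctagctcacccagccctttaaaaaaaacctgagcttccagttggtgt
Isg15 (chr4:156200819-156200968, minus strand): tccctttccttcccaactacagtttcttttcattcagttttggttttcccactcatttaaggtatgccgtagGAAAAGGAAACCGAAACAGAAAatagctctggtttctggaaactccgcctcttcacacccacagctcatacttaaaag
Rsad2 (chr12:26456453-26456602, minus strand): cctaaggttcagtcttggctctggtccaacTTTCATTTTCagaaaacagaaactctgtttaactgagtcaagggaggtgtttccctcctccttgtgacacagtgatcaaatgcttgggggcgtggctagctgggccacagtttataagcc
The CHR lies 29 to 24 bases before the RefSeq start of Ube2c and 23 to 18 bases before that of Top2a. Cdk1 has 2 copies within the 71 bases before its RefSeq start. The GENCODE start of Ube2c, given below, lies within the printed window and ahead of that motif. In Isg15 the capitals span 3 overlapping matches.

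Between day 2 and day 3, 40 genes rose, among them the colonocyte markers Lypd8, Muc13 and Car2 and the goblet cell gene Agr2, while genes of DNA replication and mitosis were lower as groups without any single member passing the test. Their lists did not move as 1. Of 18 colonocyte genes tested 14 were higher, but the colonocyte keratin gene Krt20 was lower in all 4 cultures. Of 12 goblet cell genes tested 10 were higher, with a median of 0.0238 without WT mouse 1. Over both genotypes 42 genes were called (0.310% of those tested). Of these, 40 rose (0.295%) and 2 fell (0.0148%), and at an unadjusted p under 0.05 there were 1927 genes (14.2%), 1017 higher (7.51%) and 910 lower (6.72%). All 42 moved the same way in all 4 cultures, which a call on their mean favours. Over all genes, 11.6% were higher and 11.0% lower on day 3 in all 4. In 25 of the 42 the 4 day 3 libraries did not overlap the 4 day 2 libraries, where 3.09% of all genes lay wholly above and 2.69% wholly below. The calls depend on the fit. They draw on the spread of all 20 libraries, and with the 8 libraries of days 2 and 3 alone, or without culture as a term, 0 genes were called (1846 and 1449 at an unadjusted p under 0.05, limma). With a culture left out, a genotype rests on a single mouse, and the calls were all or mostly lost. Most genes called without WT mouse 2 were not among the 42.

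**Figure D1:**
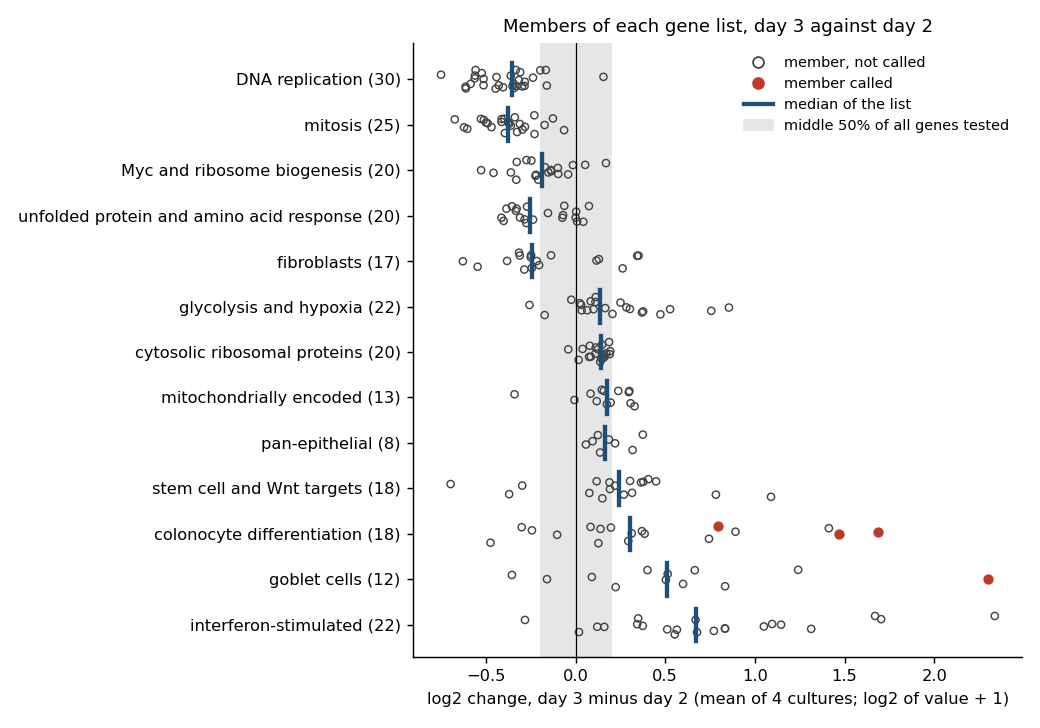
Members of 13 gene lists (number tested in brackets) by their log2 change from day 2 to day 3, averaged over the 4 cultures. Filled red points are members called, open points those not called, blue bars the medians and the grey band the middle 50% of all genes. The replication and mitosis lists lie almost wholly left of 0 and the interferon list almost wholly right of it.

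The copying of DNA was the first programme examined. The list held the MCM helicase, the origin-licensing factors, the polymerase clamp and the enzymes that make nucleotides. Of its 30 genes, 29 were lower on day 3 and 22 were lower in all 4 cultures (73.3%, against 11.0% of all genes), with a median of -0.357 against 0 for all genes. The 4 day 3 libraries lay wholly below the 4 day 2 libraries for 10 genes (33.3%, against 2.69%). None was called, and 14 reached an unadjusted p under 0.05. The summed level went from 2110, 1589, 1431 and 1498 to 1417, 1324, 1238 and 1116, lower in every culture. Mcm2, a subunit of the MCM helicase, was the exception in direction, at 0.15 (adjusted p 0.885).

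Ccne1, the E cyclin that starts S phase (chromosome 7, 38097984 to 38107534), stood at 29.6, 33.3, 24.8 and 30.2 on day 2 and 20.3, 19.7, 15.5 and 20.2 on day 3. The groups did not overlap, and the change was -0.61 (SE 0.153, adjusted p 0.112). Rrm1 and Rrm2 encode the subunits of ribonucleotide reductase, which supplies deoxynucleotides. Rrm1 went from 160, 133, 121 and 120 to 90.8, 104, 92.5 and 84.2 (-0.51, adjusted p 0.124), and Rrm2 differed by -0.56 (adjusted p 0.177), both without overlap. Pcna, the sliding clamp of the polymerases, was lower in every culture by a mean of -0.30 (adjusted p 0.231), and its groups overlapped because WT mouse 1 was high on both days.

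The mitosis list moved alongside. All 25 genes had a lower mean on day 3, and 18 were lower in all 4 cultures (72.0%, against 11.0% of all genes). For 11 there was no overlap between the days (44.0%, against 2.69%). The median was -0.376, none was called, and 13 reached an unadjusted p under 0.05. The lowest adjusted p, 0.0897, was that of Ube2c, the ubiquitin-conjugating enzyme of the anaphase-promoting complex. Ube2c (chromosome 2, 164769898 to 164778822) went from 187, 145, 165 and 156 to 117, 93.6, 130 and 111, a change of -0.53 (SE 0.113). All day 3 values lay below all day 2 values.

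Birc5, which encodes survivin of the chromosomal passenger complex, went from 141, 109, 94.3 and 108 to 86.4, 77.7, 69.1 and 61.9 (-0.60, SE 0.138, adjusted p 0.0964). The mitotic cyclin Ccnb1 differed by -0.67 (adjusted p 0.148) and its kinase Cdk1 by -0.36 (adjusted p 0.251). Top2a, the topoisomerase that untangles sister chromatids, differed by -0.41 (adjusted p 0.119), and like Ccnb1 and Cdk1 it had no overlap between the days. Mki67, the gene of the Ki-67 antigen, had one of the smaller differences of the list, at 85.9, 56.5, 62.2 and 49.4 on day 2 and 75.3, 56.1, 48.5 and 50.9 on day 3. Its change was -0.13 (SE 0.125, adjusted p 0.69).

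The D cyclins were examined with their kinases and inhibitors. Ccnd2, a D cyclin that activates the kinases CDK4 and CDK6 (chromosome 6, 127125162 to 127152193), rose from 122, 96.1, 109 and 113 to 170, 184, 190 and 221. Its day 3 libraries all lay above its day 2 libraries, and the rise was 0.79 on the log2 scale (SE 0.127, limma adjusted p 0.0263). It was the 1 gene called among the 12 D cyclins, kinases and CDK inhibitors, of which 6 were higher and 6 lower. Ccnd1 was higher in all 4 cultures by a mean of 0.23 (adjusted p 0.327). The kinase Cdk4 was lower in all 4 at -0.29 (adjusted p 0.255), and Cdk6 went from 22.4 to 28.2 on day 2 to 30.0 to 31.2 on day 3, a difference of 0.28 (adjusted p 0.397). Myc, the growth factor-responsive regulator that promotes cell cycle entry, stood at 0.05 (adjusted p 0.86).

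Genes that support protein synthesis were examined in 2 lists. Of 20 genes of Myc-linked ribosome biogenesis, 18 were lower, 9 in all 4 cultures (45.0%, against 11.0% of all genes). The median was -0.19, with 0 called. Odc1, the first enzyme of polyamine synthesis, went from 372, 326, 288 and 314 to 231, 248, 199 and 268 (-0.46, SE 0.111, adjusted p 0.104) without overlap. Ncl, which encodes nucleolin, was at -0.36 (adjusted p 0.161) and the nucleolar protein gene Nop58 at -0.53 (adjusted p 0.109). Transcripts of ribosomal proteins were examined separately. Of 20 cytosolic ribosomal protein genes, 19 were higher, 6 in all 4 cultures (30.0%, against 11.6% of all genes). Their median was 0.14 with 0 called, and it was 0.234 in WT and 0.0572 in Tnfr2-/-.

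The response to unfolded protein in the endoplasmic reticulum was examined with amino acid stress genes. In the list of the unfolded protein and amino acid response, 15 of 20 genes were lower, with a median of -0.254 and 0 called. Of these, 8 were lower in all 4 cultures (40.0%, against 11.0% of all genes) and 5 had no overlap (25%, against 2.69%). Manf, a secreted stress-induced factor, went from 186, 229, 219 and 205 to 141, 179, 159 and 163 (-0.39, SE 0.0797, adjusted p 0.0808). Calr, which encodes the lectin chaperone calreticulin, went from 1142, 1408, 1034 and 1172 to 818, 884, 940 and 909 (-0.41, SE 0.0957, adjusted p 0.0991). For both genes every day 3 library lay below every day 2 library. Hspa5, the central chaperone BiP, was at -0.36 (adjusted p 0.194) and the transcription factor Atf4 at -0.29 (adjusted p 0.191).

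**Figure D2:**
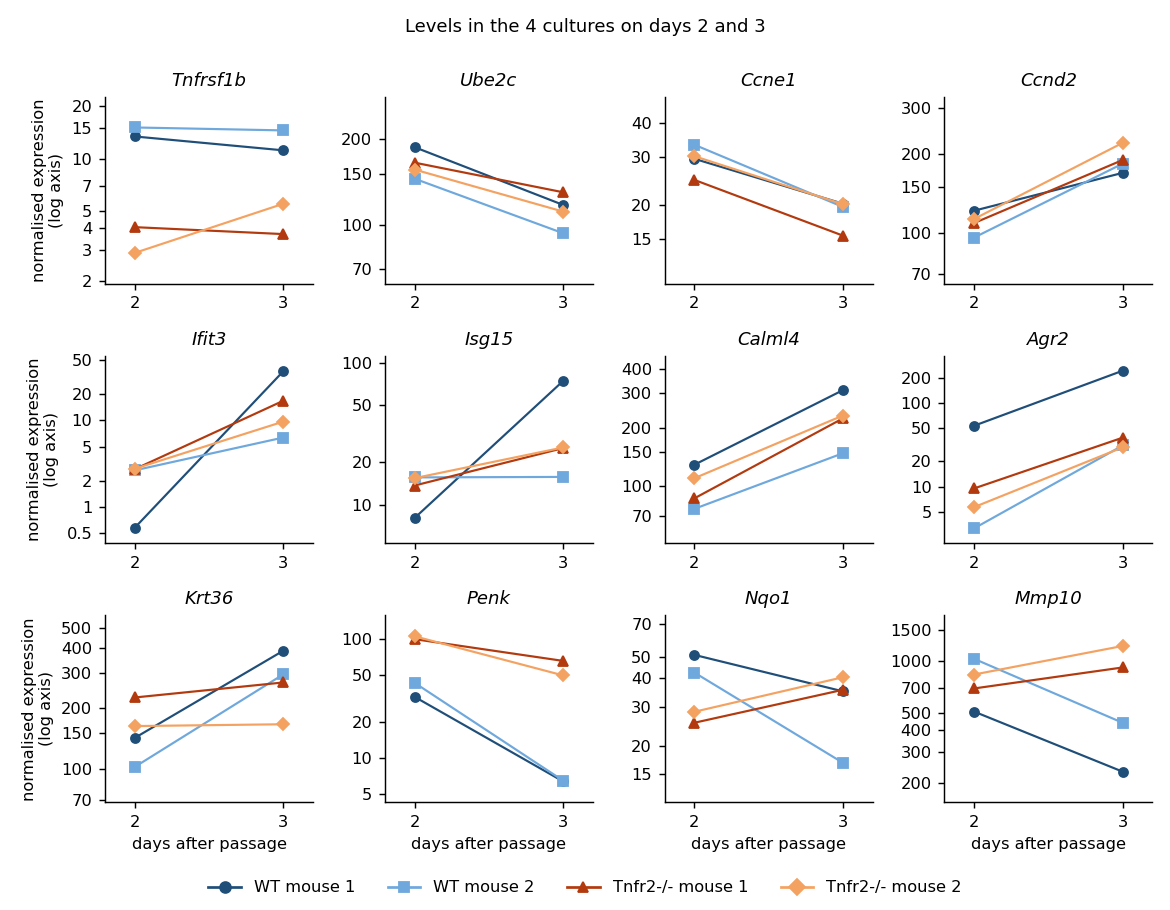
Normalised expression (log axis) of 12 genes on day 2 and day 3, with 1 line per culture. Ube2c and Ccne1 descend and Ccnd2 and Calml4 ascend in all 4 cultures, whereas Nqo1 and Mmp10 descend in both WT cultures and ascend in both Tnfr2-/- cultures.

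Interferon-stimulated genes were higher on day 3 by the largest median of any list with more than 5 genes tested. Of 22 genes, 21 were higher, 13 in all 4 cultures (59.1%, against 11.6% of all genes) and 6 without overlap (27.3%, against 3.09%). The median was 0.673, with 0 called and 11 at an unadjusted p under 0.05. The medians of the single cultures were 1.59, 0.19, 0.48 and 0.543, so WT mouse 1 was far above the others and WT mouse 2 was the smallest. Without WT mouse 1 the median was 0.404, and without WT mouse 2 it was 0.955. The summed level went from 211, 334, 332 and 332 to 684, 354, 470 and 467.

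Ifit3, an antiviral tetratricopeptide protein gene (chromosome 19, 34583531 to 34588731), went from 0.58, 2.66, 2.75 and 2.78 to 36.9, 6.36, 16.9 and 9.70 (2.34, SE 0.523, adjusted p 0.0955). Its relative Ifit1 went from 1.10, 2.02, 2.06 and 2.32 to 17.0, 4.39, 7.62 and 6.90 (1.67, SE 0.385, adjusted p 0.0971). Neither gene's groups overlapped, although the day 2 values are a few units. Isg15, a ubiquitin-like modifier, was nearly level in WT mouse 2, at 15.6 and 15.7, and higher by day 3 in the other cultures, from 8.04, 13.6 and 15.4 to 74.4, 25 and 25.3. The adjusted p of Isg15 was 0.278, that of the regulator Irf7 0.237 and that of Rsad2, which encodes viperin, 0.219. Cxcl10, an interferon-induced chemokine kept in another list, went from 3.09, 2.89, 5.09 and 5.31 to 46.2, 10.5, 14.0 and 15.2 (1.94, SE 0.377, adjusted p 0.0663). The immune markers summed to 10, 16, 18 and 23 on day 2 and to 10, 15, 25 and 32 on day 3, higher in both Tnfr2-/- cultures, and their part in the interferon values was not tested.

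Calml4, Mgam and Hnf4a were among the genes called. Calml4, a calmodulin-like protein of the links between brush border microvilli (chromosome 9, 62858080 to 62875921), rose from 129, 76.3, 86.5 and 110 to 312, 148, 223 and 231. The groups did not overlap, and the rise of 1.16 (SE 0.116) had the lowest adjusted p of all genes, 0.00592. Mgam, the brush border maltase-glucoamylase, rose by 1.00 (SE 0.115, adjusted p 0.00892), from 24.4, 12.1, 33.4 and 25.7 to 66.8, 25.2, 52.9 and 50.6. Hnf4a, the nuclear receptor that maintains intestinal epithelial identity, rose from 67.5, 28.4, 47.7 and 42.7 to 129, 57.1, 69.4 and 64.4 (0.75, SE 0.127, adjusted p 0.0333). For Mgam and Hnf4a WT mouse 2 was the lowest culture on both days, and the groups overlapped while each culture was higher on day 3.

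Atp12a, Kcne3, Kcnq1 and Car2 were also called. Atp12a, the colonic proton-potassium pump, rose from 5.73, 2.31, 15.9 and 8.49 to 50, 21.2, 23.2 and 19.1 (1.82, SE 0.238, adjusted p 0.0148) without overlap. Kcne3 and Kcnq1 encode the subunits of a basolateral potassium channel of colonic crypts. Kcne3 rose from 10.1, 9.36, 13.9 and 17.8 to 41.4, 22.4, 39.6 and 42.5 (1.44, SE 0.206, adjusted p 0.0243), and Kcnq1 rose by 0.72 (SE 0.113, adjusted p 0.0262), both without overlap. Car2, the cytosolic carbonic anhydrase that supplies bicarbonate, rose from 148, 110, 150 and 158 to 274, 208, 263 and 233 (0.79, SE 0.129, adjusted p 0.0263), and all of its day 3 libraries were above all of its day 2 libraries.

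Agr2, Lypd8, Muc13, Nox1 and Mmp7 also passed the test. Agr2, a disulfide isomerase needed for mucin folding (chromosome 12, 35992907 to 36004087), rose from 53.4, 3.17, 9.52 and 5.69 to 243, 31.0, 38.5 and 29.5, which is 2.30 on the log2 scale (SE 0.358, adjusted p 0.0262). WT mouse 1 was the highest culture on both days, and its day 2 value exceeded the day 3 value of the other 3. Lypd8, a surface protein that keeps flagellated bacteria from the epithelium, rose by 1.69 (SE 0.268, adjusted p 0.0262) from 72.2, 11.1, 34.8 and 33.5 to 427, 33.1, 86.9 and 90.4. It had been called lower from day 1 to day 2 (-2.10, adjusted p 0.00305), with day 1 values of 354, 113, 77.5 and 113, so that day 3 lay above day 1 in WT mouse 1 and Tnfr2-/- mouse 1 only. The membrane mucin Muc13 rose from 34.0, 2.26, 9.60 and 7.28 to 90.2, 7.35, 25 and 28.5 (1.47, SE 0.226, adjusted p 0.0262). Nox1, the superoxide-generating oxidase of the colon, rose by 1.61 (SE 0.235, adjusted p 0.0243) from 0.286 to 2.70 on day 2 to 1.48 to 10.4 on day 3. Mmp7, a secreted metalloproteinase, rose from 7.22, 3.56, 11.1 and 18.1 to 20.3, 7.73, 56.7 and 45.2 (1.46, SE 0.194, adjusted p 0.0148).

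The other rising genes named by size were low in expression. Serpinb7, an intracellular protease inhibitor, was listed at 0 in 3 day 2 libraries and at 0.367 in WT mouse 2, and reached 3.05, 8.10, 5.92 and 1.15 on day 3 (adjusted p 0.0412). The lectin gene Lgals2 stood at 1.14 in WT mouse 1 and at 0 elsewhere on day 2 and at 7.03, 1.71, 4.09 and 6.18 on day 3 (adjusted p 0.0412). Ttr, which encodes the thyroxine carrier transthyretin, rose by 2.06 (adjusted p 0.0262) from 3.51, 0.607, 0.992 and 0.466 to 37.4, 5.27, 3.68 and 4.76. The C-type lectin-like gene Chodl rose by 1.99 (adjusted p 0.0263) and Apobec2, of the cytidine deaminase family, by 1.53 (adjusted p 0.0412), with day 2 values of at most 4.31. For all 5 the day 3 libraries lay above the day 2 libraries, and the lower end of each range rests on values of a few units.

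The genes called lower were Penk and Cracr2b. The split of 40 and 2 depends on the fit, with 47 higher and 22 lower without the filter on low values, 79 and 27 without day 7 of WT mouse 1, and 60 and 18 without WT mouse 2. Penk, the precursor of enkephalin opioid peptides (chromosome 4, 4133531 to 4138819), fell from 32.6, 42.8, 99.4 and 105 to 6.35, 6.45, 65.3 and 49.3, which is -1.61 on the log2 scale (SE 0.255, adjusted p 0.0262). The Tnfr2-/- cultures remained above the WT day 2 level, so the days overlapped. Cracr2b, a regulator of store-operated calcium entry (chromosome 7, 141461094 to 141466613), fell from 35.7, 49.2, 29.8 and 38.1 to 22.6, 26.0, 13.7 and 18, without overlap, by 0.91 on the log2 scale (adjusted p 0.0315).

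**Figure D3:**
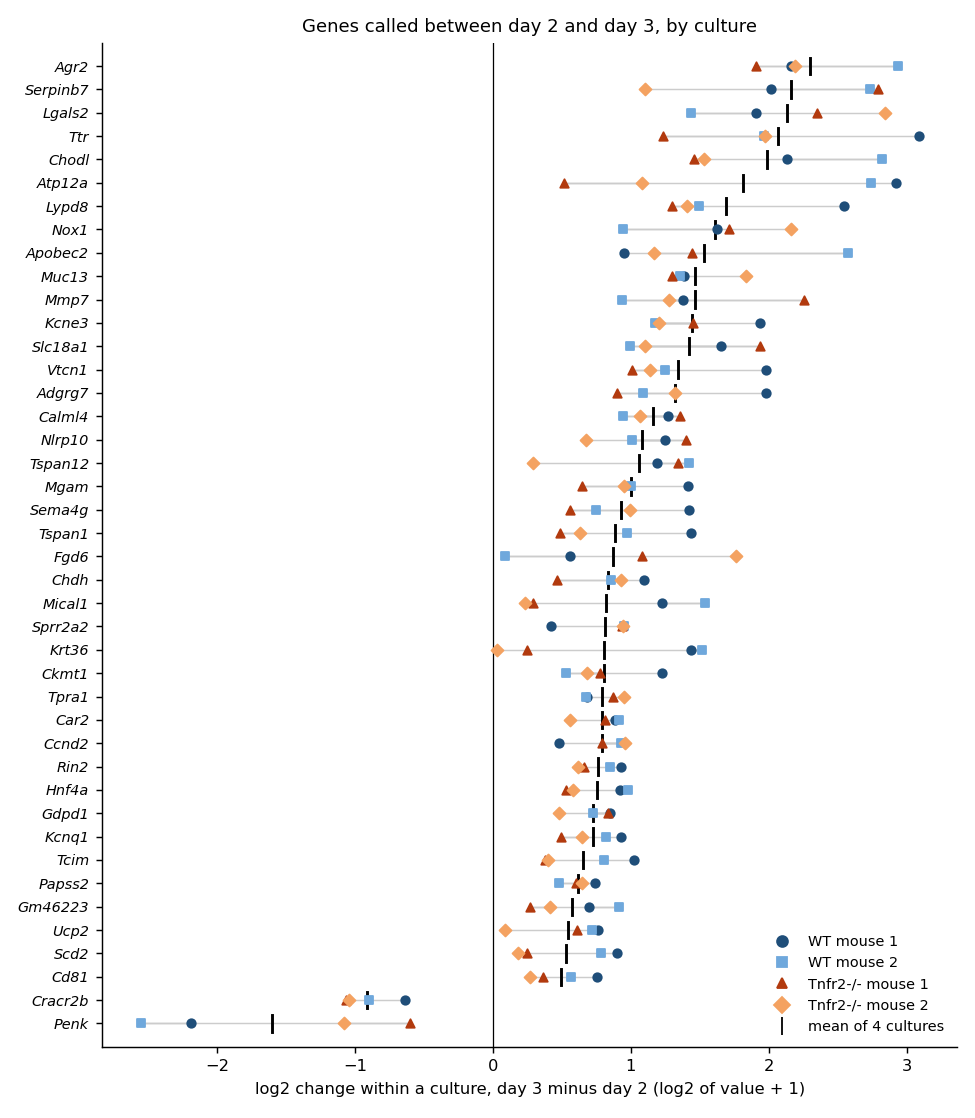
Change from day 2 to day 3 within each culture for the 42 genes called, as log2 of value plus 1, with the mean of the 4 cultures as a black bar. Every point of a gene lies on 1 side of 0, and for Krt36, Atp12a and Mical1 the WT points lie right of both Tnfr2-/- points.

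The remaining called genes rose by 0.49 to 1.42. Among them were Ucp2, a mitochondrial carrier, at 0.54, the mitochondrial creatine kinase Ckmt1 at 0.80, Papss2, which makes the sulfate donor used on mucins, at 0.62, and Krt36, a keratin, at 0.81. Slc18a1, a vesicular monoamine transporter, rose by 1.42 (adjusted p 0.0447) from values of at most 1.49. Sprr2a2 (14898, 9505, 15335 and 17842 on day 2 and 19901, 18370, 29282 and 34249 on day 3) belongs to a tandem family of near-identical genes, and Gm46223 is a processed pseudogene, so reads of both can be shared with their relatives and their values are uncertain. The genes of the present paragraph, with Calml4, Mgam, Hnf4a and Kcnq1, were named after their values had been seen.

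Read by cell type, the differentiation lists moved partly. Of 18 colonocyte genes tested among 21, 14 were higher, with a median of 0.303, and Lypd8, Muc13 and Car2 were called. The medians of the single cultures were 0.79, -0.0288, 0.34 and 0.496, and the median was 0.172 without WT mouse 1 and 0.13 without its day 2 library alone. Vil1, which encodes the brush border protein villin, was higher in all 4 cultures (0.37, adjusted p 0.295). Krt20, a keratin of surface colonocytes, was lower in all 4, from 136, 225, 231 and 226 to 75.1, 176, 152 and 209 (-0.47, adjusted p 0.539). Of 12 goblet cell genes tested among 15, 10 were higher with a median of 0.508, and only Agr2 was called. That median was 0.0238 without WT mouse 1, in which Muc2, the main gel-forming mucin, stood at 15.9 and 37.8 while it was at most 1.79 in the other cultures. Tff3, the goblet cell trefoil peptide, showed the same culture difference, at 56.4 and 93.9 in WT mouse 1 and listed at 0 on both days in WT mouse 2.

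Fewer members of the other secretory lists passed the filter. The list of deep secretory cells had 5 of 10 genes tested and 0 called, and its marker Reg4, a secreted lectin, went from 10.4, 0, 0.616 and 0 to 52.4, 0, 4.56 and 2.36 (1.44, SE 0.604, adjusted p 0.307). The enteroendocrine list had 5 of 15 genes tested, 4 of them lower, and the tuft cell list 4 of 12, 3 of them lower, with 0 called in either. The tested enteroendocrine genes summed to 141, 81, 133 and 201 on day 2 and to 53, 33, 227 and 189 on day 3, and the tuft cell genes to 129, 190, 121 and 124 and then 66, 139, 101 and 113. Neurod1 and Pax4, factors that specify endocrine cells, and Gnat3 of tuft cells were listed at 0 in all 8 libraries.

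Stem cell and Wnt target genes were higher as a group. Of 18 genes, 15 were higher and 6 were higher in all 4 cultures (33.3%, against 11.6% of all genes). The list had a median of 0.244 and 0 called. The median was 0.415 in WT and 0.127 in Tnfr2-/-, with 0.362, 0.448, 0.0734 and 0.197 in the single cultures, and 3 of the 18 had a difference between genotypes at an unadjusted p under 0.05 (16.7%, against 5.63% of all genes), with 0 called. Rnf43, a Wnt receptor-degrading ligase that Wnt itself induces, went from 65.9, 60.5, 70.2 and 56.7 to 91.2, 116, 80.2 and 66.1 (0.45, SE 0.106, adjusted p 0.1). Slc12a2, a chloride cotransporter of crypt base cells, went from 200, 148, 197 and 175 to 268, 235, 233 and 215 (0.41, SE 0.0958, adjusted p 0.1) without overlap. Lgr5, the marker of crypt base stem cells, stood at 5.12, 3.19, 5.15 and 1.58 on day 2 and at 15.7, 4.37, 6.33 and 4.42 on day 3 (0.78, SE 0.361, adjusted p 0.355). It was higher in every culture, and the groups overlapped. Prom1, a membrane glycoprotein of progenitors, went from 248 to 281 on day 2 to 321 to 340 on day 3 (0.31, adjusted p 0.213).

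Energy metabolism was examined in 3 lists. Of 22 glycolysis and hypoxia genes, 19 were higher, 9 in all 4 cultures (40.9%, against 11.6% of all genes). For 5 there was no overlap (22.7%, against 3.09%), and the list had a median of 0.138 and 0 called. That median was 0.0661 without WT mouse 1 and 0.0283 without its day 2 library alone. Pdk1, a kinase that inhibits pyruvate dehydrogenase, went from 15.9, 16, 36.9 and 37.4 to 39.3, 40.7, 50.3 and 50.7 (0.86, SE 0.211, adjusted p 0.11). Egln3, an oxygen-sensing hydroxylase, differed by 0.76 (adjusted p 0.151), and both had no overlap. Of 13 mitochondrially encoded genes, 11 were higher with a median of 0.174, among them mt-Co1, a subunit of cytochrome oxidase, at 0.33 (adjusted p 0.104). The 19 nuclear genes of oxidative phosphorylation had a median of 0.0345, with 12 higher, 7 lower and 0 called, and the median was -0.0692 without WT mouse 1.

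The remaining lists are given together. The 20 regenerative and YAP-linked genes had a median of 0.0673, with 11 higher, 9 lower and 0 called. In that list Ly6a, the surface marker of regenerating epithelium, stood at 2365, 2752, 3214 and 3176 on day 2 and at 2408, 2968, 3635 and 3386 on day 3 (0.10, adjusted p 0.805), and Clu, the marker of revival stem cells, at -0.05 (adjusted p 0.926). Ly6d, another Ly6 family gene, was higher in all 4 cultures at 0.39 (adjusted p 0.349), and Tgfb1 stood at 0.03 (adjusted p 0.962). Of the 12 genes the study itself followed, which include the receptors above, 9 were higher and 1, Car2, was called. The immediate early list had a median of -0.0241. In it Fosl1, a FOS-family factor of wound edges, went from 45.2, 57.9, 51.4 and 48.9 to 20.1, 30.3, 32.7 and 37.0 (-0.77, SE 0.149, adjusted p 0.0662) without overlap. The squamous list had a median of 0.0568, the p53 targets 0.0362 and the EGF and ERK list -0.0745, each with 0 called. The 22 NF-kappaB targets and chemokines tested among 24 had a median of -0.117, with 15 lower and 0 called, and the chemokine gene Ccl2 went from 192, 314, 384 and 402 to 61.7, 144, 235 and 223 (-1.07, SE 0.218, adjusted p 0.0759). The 17 fibroblast markers had a median of -0.245, with 12 lower, 7 in all 4 cultures (41.2%, against 11.0% of all genes), and 0 called. Among them Vim, which encodes the intermediate filament vimentin, went from 336, 657, 604 and 732 to 182, 449, 353 and 591 (-0.63, adjusted p 0.144). The part of the fibroblasts in the other results was not tested.

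**Figure D4:**
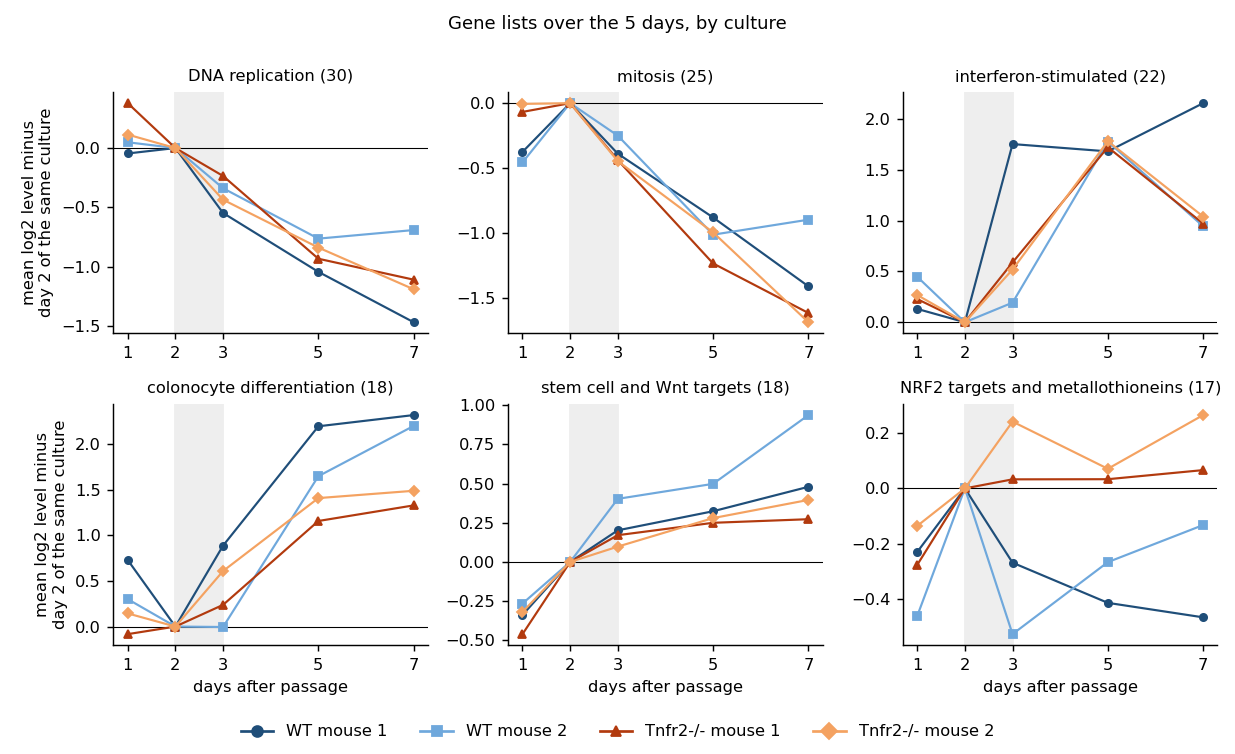
Mean log2 level of 6 gene lists on each of the 5 days, relative to day 2 of the same culture, with 1 line per culture and the interval between day 2 and day 3 shaded. DNA replication and mitosis go down across the shaded interval in all 4 cultures and onward to day 5; interferon-stimulated genes go up in all 4, most in WT mouse 1; NRF2 targets go down in both WT cultures, up in Tnfr2-/- mouse 2 and are nearly level in Tnfr2-/- mouse 1.

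The interval was then placed in the whole course. For day 5 against day 1, libraries that share none with the present comparison but share its estimate of spread, 3277 genes were called (24.2%), 1812 higher (13.4%) and 1465 lower (10.8%). This comparison was added after the data had been seen. Of the 40 genes that rose between day 2 and day 3, 39 (97.5%) were also among the 1812 (2.15% of these), the exception being Slc18a1. DNA replication had a median of -1.02 over those days with 27 of 30 genes called lower, and mitosis -0.762 with 21 of 25 called lower. The interferon list had 1.49 with 18 of 22 called higher, and the stem cell and Wnt list 0.748 with 10 of 18 called higher. Between neighbouring days, mitosis genes had a median of 0.219 from day 1 to day 2, -0.376 from day 2 to day 3 and -0.699 from day 3 to day 5. For the interferon list the medians in the same order were -0.325, 0.673 and 0.904. DNA replication had -0.162, -0.357 and -0.496, colonocyte differentiation -0.305, 0.303 and 1.13, and goblet cells -0.456, 0.508 and 1.68. By these medians both differentiation lists were lower on day 2 than on day 1. The mean level of the colonocyte list in Tnfr2-/- mouse 1 went the other way, with day 1 at -0.0831 relative to day 2. Of the 40 genes that rose, 9 had been called higher and 2, Lypd8 and Fgd6, called lower from day 1 to day 2. The count of calls over all genes was 294 from day 1 to day 2 (2.17%), 42 from day 2 to day 3 and 695 from day 3 to day 5 (5.13%), and the last interval spans 2 days.

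Whether the genotypes agreed was examined next. In WT cultures alone 8 genes were called (0.0591%), 7 higher (0.0517%) and 1 lower (0.00739%), with 1731 at an unadjusted p under 0.05 (12.8%). Those called were Krt36, Atp12a, Mical1, Mgam, Tspan1, Scd2 and Calml4, which rose, and Penk, which fell. In Tnfr2-/- cultures alone 0 genes were called by limma (0%, lowest adjusted p 0.115), with 966 at an unadjusted p under 0.05 (7.13%). The 8 genes called in WT had the same sign in Tnfr2-/-. These counts depend on the fit. The WT count was 1 with the 8 libraries alone, 0 without the block or without either Tnfr2-/- culture, and 3 to 63 without 1 library, and the Tnfr2-/- count was 14 without the filter on low values. Of the 1731 WT genes, 73.4% had the same sign in Tnfr2-/-, and of the 966 Tnfr2-/- genes, 70.7% had the same sign in WT, where 59.1% of all genes had the same sign in both. Across genes, which are not independent replicates, the changes of the genotypes correlated at a Pearson r of 0.151 and a Spearman rho of 0.235. The single cultures were compared in the same way. Their changes correlated at 0.139 in the WT pair and 0.0753 in the Tnfr2-/- pair, and the coefficient ranged from 0.0507 to 0.141 over all pairs.

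The lower proliferation genes were seen in both genotypes. The median of the DNA replication list was -0.476 in WT and -0.363 in Tnfr2-/-, and that of the mitosis list was -0.361 and -0.406. In single cultures the medians were -0.503, -0.395, -0.299 and -0.453 for replication and -0.413, -0.307, -0.373 and -0.425 for mitosis. Of the 55 genes of both lists together, 1 had a difference between genotypes at an unadjusted p under 0.05. Over all genes 5.63% had one, so this count sets the lists little apart from other genes. The interferon list had medians of 0.868 in WT and 0.536 in Tnfr2-/-, and the unfolded protein list -0.297 and -0.167.

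The difference between genotypes was tested directly as the change in Tnfr2-/- minus the change in WT. No gene was called (0%), with 762 at an unadjusted p under 0.05 (5.63%), and the lowest adjusted p over all genes was 0.175. Its median SE was 0.398, against 0.199 for the change over both genotypes. Of the 42 genes called over both genotypes, 30 had the larger change in WT, as had 7667 of all 13539 genes, and 10 (23.8%) had a difference at an unadjusted p under 0.05, 9 of them larger in WT. A low estimated spread favours a gene in both tests. Krt36 had the lowest p for the difference. It rose from 142 and 102 to 386 and 295 in WT (1.48) and stood at 226 and 163 and then 269 and 167 in Tnfr2-/- (0.14), a difference of -1.34 (adjusted p 0.175). On day 2 the Tnfr2-/- cultures held the 2 higher values and on day 3 the 2 lower ones. The pump gene Atp12a differed by -2.03 between the genotypes (adjusted p 0.578), Mical1, which oxidises actin, by -1.12 (adjusted p 0.578), and Fgd6, an exchange factor for the GTPase CDC42, by 1.10 in favour of Tnfr2-/- (adjusted p 0.618).

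**Figure D5:**
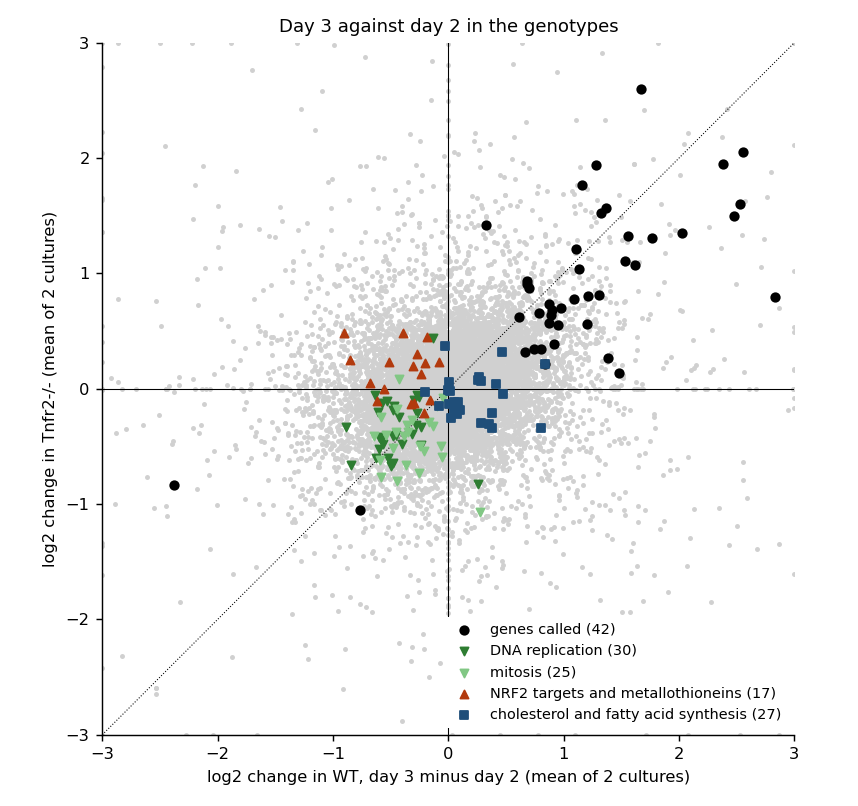
Change from day 2 to day 3 in WT (horizontal) and in Tnfr2-/- cultures (vertical), each the mean of 2 cultures on the log2 scale, for all 13539 genes (grey) and for the genes called and 4 lists; 50 genes beyond 3 in either direction are drawn at the edge. The genes called lie upper right and lower left and nearly all proliferation genes lower left, while NRF2 targets lie mostly left of 0 around the horizontal line and cholesterol genes reach into the lower right.

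Over all genes, 10.3% went one way in both WT cultures and the opposite way in both Tnfr2-/- cultures, 676 higher in WT and 714 higher in Tnfr2-/-. A call on the mean of both genotypes all but requires the same sign in both, so the genes called are not read against this share. The share was higher in 13 of the 30 lists, among them tuft cells (2 of 4 genes), NRF2 targets, cholesterol synthesis, wound-edge genes and the immediate early list (22.2%). The genes named for this pattern were chosen after their values had been seen, and no test compares these lists with other genes. Of 17 NRF2 targets and metallothioneins, which defend against oxidants and metals, 7 were lower on day 3 in both WT and higher in both Tnfr2-/- cultures, and 0 the reverse (41.2% in all). The median was -0.303 in WT and 0.196 in Tnfr2-/-, and the medians of the single cultures were -0.317, -0.553, -0.125 and 0.213, so that of Tnfr2-/- mouse 1 was below 0 as in WT. Nqo1, a quinone reductase (chromosome 8, 107388225 to 107403206), went from 51.0 and 42.5 to 35.1 and 16.9 in WT and from 25.4 and 28.4 to 35.6 and 40.5 in Tnfr2-/-. The difference was 1.39 and was not called (adjusted p 0.578). The metallothionein gene Mt2 went from 235 and 324 to 149 and 156 in WT and from 388 and 631 to 474 and 732 in Tnfr2-/-, a difference of 1.10 (adjusted p 0.611).

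Some wound-edge genes also went opposite ways. Of 19 genes of wound-edge adhesion and proteolysis, with a median of -0.126, 4 were lower in both WT and higher in both Tnfr2-/- cultures, 1 was the reverse, and Mmp7 was called as risen in both genotypes together. Mmp10, a stromelysin (chromosome 9, 7502352 to 7510240), went from 511 and 1027 to 231 and 441 in WT and from 695 and 835 to 917 and 1218 in Tnfr2-/-, a difference of 1.65 (adjusted p 0.578). The collagenase Mmp13 went from 18.6 and 36 to 8.03 and 10.3 in WT and from 34.2 and 41.7 to 60.0 and 102 in Tnfr2-/-, a difference of 2.45 (adjusted p 0.618). Ereg, an EGF-family ligand, was lower in WT, from 201 and 179 to 59.9 and 79.8, and stood at 152 and 172 and then 165 and 164 in Tnfr2-/- (difference 1.47, adjusted p 0.578). Plaur, the urokinase receptor, was lower in all 4 cultures, at -1.12 in WT and -0.32 in Tnfr2-/-. The fibroblast marker sums moved alongside, lower on day 3 in both WT cultures, lower in Tnfr2-/- mouse 1 and level in Tnfr2-/- mouse 2, and their part in these differences was not tested.

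Some genes of lipid synthesis went opposite ways in the other sense. Of 27 genes of cholesterol and fatty acid synthesis, 10 were higher on day 3 in both WT and lower in both Tnfr2-/- cultures and 0 the reverse (37.0%), while the other 17 did neither. The differences were small, with a median of 0.0806 in WT and -0.115 in Tnfr2-/-. Insig1, the sterol sensor that holds back this pathway, went from 111 and 97.1 to 135 and 131 in WT and from 111 and 122 to 95.3 and 92.4 in Tnfr2-/-, a difference of -0.66 (adjusted p 0.703). The mevalonate pathway kinase Pmvk differed by -0.71 (adjusted p 0.885). Cyp51, the sterol demethylase, went the other way, at -0.03 in WT and 0.37 in Tnfr2-/-. Scd2, a fatty acid desaturase and the 1 called gene of the list, rose from 546 and 501 to 1017 and 864 in WT (0.84) and stood at 745 and 635 and then 886 and 719 in Tnfr2-/- (0.21), with a log2 fold change over both of 0.53 (adjusted p 0.0263).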

How the data were processed

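RNA from 20 colonoid libraries, 1 per mouse and day, was sequenced. Per the labels and the study's methods, the authors used kallisto, sleuth and mm10. The table they deposited holds a signal per transcript and library, which is TPM divided by a size factor. Replicates were not pooled. Its 11 further columns hold the authors' own genotype test (p-values, q-values and variance terms) and were not used.

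Of 113974 lines, 781 repeats were dropped, and 113193 transcripts were summed to 35240 gene symbols. Transcripts without a gene (199) held at most 0.0989% of a library. The 13539 genes with a mean of at least 1 over all libraries were tested as log2 of value plus 1 with limma 3.58.1 (R 4.3.3, empirical Bayes with trend, Benjamini-Hochberg adjustment). The fit held 10 genotype and day means and culture as a block, with 8 residual degrees of freedom. The script was tested on simulated data. Same-numbered libraries of a genotype were taken as the same mouse, since the labels give 2 mice per genotype, and this is an assumption. As a check of this pairing, the difference between the mice on day 2 correlated across genes with that on day 3 at 0.215 in WT and 0.0335 in Tnfr2-/-. In Tnfr2-/- the check gives the pairing little support, and the calls and the counts by culture rest on it. With culture in the fit, p-values measure how far the mice of a genotype differed in their changes over the 5 days. The spread between mice in level is taken out.

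Genes were named by this rule: up to 12 genes called with the largest rise and 12 with the largest fall, leaving out pseudogenes and predicted genes, the members called and defining members of each list, and the genes followed by the study. Some exceptions are marked in the text. For replication, mitosis and interferon, more members not called are named than the few this rule allowed. Ube2c, Ccne1, Ifit3, Manf and Fosl1 had the lowest adjusted p of their lists, and they are not to be read as chosen beforehand. The members, lists and rule were chosen with earlier results of these data known. Coordinates are from GENCODE M21 (GRCm38), which held 99.42% of the symbols, and promoters from RefSeq. Alternatives varied the libraries fitted, the block, the trend, the pseudocount, the filter and the scaling, and left out each library and each culture. One result is not reported here.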

Additional observations from a re-analysis of the deposited data

Results flagged for a closer look

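Of the named genes, 16 were lower on day 3 in both cultures of one genotype and higher in both cultures of the other. Many of them were named for this pattern after their values had been seen, so their number is not a result. The difference itself (Tnfr2-/- minus WT, log2) was tested with limma over all genes. In the main fit 0 of the 16 were called, with adjusted p from 0.578 to 0.959. Mmp13 was called without day 7 of WT mouse 1 and without day 7 of WT mouse 2, fits that leave a single library in that group. Genes lower in WT and higher in Tnfr2-/- were Nqo1 (1.39), Gclc (0.568), Srxn1 (0.426), Slc7a11 (0.746), Gsta4 (0.634), Prdx1 (0.367) and Mt2 (1.1) of the NRF2 and metallothionein list. The matrix and protease genes Mmp10 (1.65), Mmp13 (2.45), Tnc (1.34) and the fibroblast marker Dcn (0.848) did likewise. Genes higher in WT and lower in Tnfr2-/- were Insig1 (-0.663), Pmvk (-0.714), Dhcr7 (-1.14) and Lss (-0.587) of cholesterol synthesis and the claudin gene Cldn3 (-0.782). Over all genes 10.3% had such opposite directions, and the 16 are not read against this share.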

How the results depend on the processing

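The count of genes called depended on the fit. Over both genotypes it was 42, and it was 0 with the 8 libraries of days 2 and 3, 2 with the 12 libraries of days 1 to 3 (Agr2 and Penk), 0 without the replicate block, 21 without the trend and 69 without the filter. It was 0 without WT mouse 1, 78 without WT mouse 2, 0 without Tnfr2-/- mouse 1 and 1 without Tnfr2-/- mouse 2, and 2 to 106 when 1 library was left out, lowest without day 3 of Tnfr2-/- mouse 1 and highest without day 7 of WT mouse 1. Other libraries whose removal moved it by over 1.5 times were day 2 of Tnfr2-/- mouse 1 (4) and mouse 2 (8), day 2 of WT mouse 1 (19) and mouse 2 (13), day 3 of Tnfr2-/- mouse 2 (8) and WT mouse 1 (9), day 5 of both Tnfr2-/- mice (11 and 11) and day 7 of WT mouse 2 (105). In WT alone the 8 calls became 1, 5, 0, 3 and 28 under those same 5 fits, 2 with a pseudocount of 5, and 4, 15, 0 and 0 without each culture in the same order, and 3 to 63 without 1 library. In Tnfr2-/- alone the 0 calls became 1 without the trend, 3 with a pseudocount of 5, 14 without the filter and 0 to 3 without 1 library. For the difference they became 1 without the trend, 25 without the filter, 1 (Krt36) with libraries rescaled to 1 sum and 0 to 3 without 1 library. Fits with more calls did not always hold the genes of the main fit. Of the 69 genes called without the filter, 36 were among the 42. Most genes called without WT mouse 2 were not among the 42. The 1 WT gene called with the 8 libraries alone, Il1rl1, was not among the 8 called in WT. The cause of these shifts was not tested.

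Calml4 was the only gene called in all 20 fits without 1 library, and none of the 42 changed direction in any alternative run. Directions turned for 7 genes that were not called. Without 1 library Tnfrsf1b ranged from -0.05961 to 0.2316, Tnfrsf1a from -0.6032 to 0.05143, Myc from -0.01313 to 0.1196, Muc2 from -0.08147 to 1.088, Clu from -0.1697 to 0.06504, Tgfb1 from -0.1472 to 0.2116 and Mcm2 from -0.2547 to 0.5646. Without Tnfr2-/- mouse 2, Tnfrsf1b was -0.1262 and Tgfb1 -0.104. Without WT mouse 1, Tnfrsf1a was 0.1063 and Tgfb1 -0.02609, and with rescaled sums Tgfb1 was -0.01108. Mcm2 was -0.3995 without WT mouse 2 and -0.05516 without Tnfr2-/- mouse 1. The medians of the replication, mitosis and interferon lists kept their sign in all alternatives run (-0.457 to -0.312, -0.42 to -0.321 and 0.404 to 0.955). Lists whose median turned sign in at least 1 alternative were D cyclins, squamous, cholesterol, p53, immediate early, deep secretory, tuft, oxidative phosphorylation, EGF, regenerative, immune and endothelial. Medians that kept their sign but moved by over 1.5 times were colonocyte (0.13 to 0.514), goblet (0.0238 to 0.836), glycolysis (0.0283 to 0.3), Myc (-0.271 to -0.0998), NF-kappaB (-0.228 to -0.0587), NRF2 (-0.258 to -0.0291), wound-edge (-0.186 to -0.0415), enteroendocrine (-0.675 to -0.0183), fibroblast (-0.334 to -0.14), ribosomal (0.0785 to 0.178), mitochondrial (0.0842 to 0.277), interferon and the genes followed by the study (0.0494 to 0.233). Depth per library is not in the table, so the counting error of values of a few units is not given.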
